A study of Mus musculus with 2 samples.

Results

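The cells described here were islet leukocytes that carried Ifitm3 and Cfp transcripts but none for Cd209a, Clec10a or Mgl2, a set of 302 among 24413 barcodes. They came from the pancreatic islets of 12-week-old female NOD mice, which become diabetic through autoimmune attack on beta cells. One library was made from WT NOD mice and the other from mice labelled NOD.Cxcl16-/-, and in both the sort kept live CD45+CD31- cells of hand-picked islets. The number of mice behind each library is not given in the sources used here, and with 1 library per genotype no difference between genotypes can be tested.

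A barcode was a member when it had at least 500 genes and at most 10% mitochondrial UMIs (unique molecular identifiers, counted transcripts), Ifitm3 of at least 3 UMIs and Cfp of at least 1. It also had no UMI of Cd209a, Clec10a, Mgl2, Xcr1, Clec9a, Siglech or Cd3d, Cd3e and Cd3g, at most 2 of C1qa, C1qb and C1qc together, and at most 1 each of Fscn1 with Ccl22, of Ly6c2 and of Cd79a. The rule found 129 cells in the WT library, 1.05% of 12252 barcodes passing the quality limits (95% exact binomial interval 0.880 to 1.25), and 173 in the library labelled NOD.Cxcl16-/-, 1.69% of 10214 (1.45 to 1.96). These intervals cover counting error only. The question behind the rule was whether such cells are monocytes or dendritic cells (DCs).

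Conventional DCs arise from bone marrow precursors that need the receptor tyrosine kinase Flt3, carry the transcription factor Zbtb46, and present antigen to T cells on MHC class II. Monocytes and macrophages depend on the receptor Csf1r, use the transcription factor Cebpb, and carry Fc receptors such as Fcgr1 and the lipopolysaccharide co-receptor Cd14. Both lineages can carry Ifitm3, a membrane protein that restricts virus entry, and Cfp, which encodes properdin, the stabiliser of the alternative complement convertase. In NOD islets, macrophages and DCs take up beta-cell antigen.

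The libraries held 93553185 UMIs (WT) and 98681133 UMIs (labelled NOD.Cxcl16-/-), and passing barcodes had medians of 4269 and 5189 UMIs. Members were deeper, with medians of 11208 and 11766 UMIs and 3015 and 3143 genes, and their summed UMIs were 1417240 and 2108861. Levels are given as CPM, the UMIs of a gene summed over the cells of a library and scaled to a common UMI total. The libraries shared 45 barcode sequences, and 2 members had a barcode that also occurred in the other library, but none was a member in both. Cxcl16 itself stood at 243 (218 to 271) and 240.4 CPM (219.9 to 262) in WT members and in those of the other library, so its 3' counts did not distinguish the labels. The deleted part of the gene is not given in the sources used here, and the label was therefore neither checked nor used for a direction.

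The cells were chosen by their UMIs of the genes of the rule, so the values of those genes are a description. Ifitm3 (GRCm38 chr7:141009586-141010770, minus strand) ranged from 3 to 86 UMIs per WT member with a median of 12, and from 3 to 98 with a median of 13 in the other library. Cfp (chrX:20925454-20931555, minus strand) had a median of 4 UMIs in both libraries and reached 22 and 27. The other genes that marked the cells were present in most of them: Ifitm1 in 79.1% and 74.6%, the kinase gene Pak1 in 87.6% and 96.5%, Mcemp1 in 80.6% and 82.1%, and the inflammatory cytokine gene Il1b in 62.0% and 64.7%. Lyz2, the lysozyme gene of monocytes and macrophages, had a median of 0 UMIs per member in both libraries. Ifitm1, Ifitm2, Ifitm3 and Ifitm6 are related copies in one cluster on chromosome 7, where reads can be shared between copies, and their counts are uncertain to that extent.

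At the limit on Ifitm3, 9 WT cells and 8 cells of the other library just failed with 2 UMIs, and their Flt3 stood at 113 and 257 CPM. Just inside, with 3 UMIs, 10 and 13 cells had Flt3 at 205 and 173 CPM. At the limit on Cfp, the 48 and 32 cells with none had Cebpb at 624 and 356 CPM, against 523 and 306 CPM in the 22 and 25 members with 1 UMI. The 9 and 23 cells excluded by a single UMI of Cd209a, Clec10a or Mgl2 had Napsa at 1154 and 1261 CPM, against 1552 and 1484 CPM in the members. These excluded cells had more of 2 monocyte genes. Their Lyz2 was at 3337 and 1535 CPM against 528 and 556 CPM in the members. Their Cebpb was at 390 and 299 CPM against 184 and 146 CPM.

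Members were compared with 4 other populations cut from the same libraries with the same quality limits. Cd209a or Clec10a DCs (42 and 66 cells) had 2 or more UMIs of Cd209a, Clec10a or Mgl2 and met the other upper limits. Ly6c2 monocytes (6 and 7 cells) had at least 3 UMIs of both Ly6c2 and Lyz2. C1q macrophages (27 and 83 cells) had at least 10 UMIs of the C1q genes and none of Mzb1. Xcr1 or Clec9a DCs (31 and 50 cells) had at least 2 UMIs of those genes. The monocytes and the Xcr1 or Clec9a DCs met the upper limits on genes outside their own definition. The macrophages met those on Xcr1 with Clec9a, Fscn1 with Ccl22, Siglech, Cd3 and Cd79a. They had no limit on Cd209a, Clec10a, Mgl2 or Ly6c2. None of the 4 populations had a limit on Ifitm3 or Cfp. UMIs were summed per library and population, and edgeR's quasi-likelihood test compared the sums with the library as a term, so that the 2 libraries served as replicates. A gene was called at a Benjamini-Hochberg adjusted p under 0.05 over all genes and a fold of 2 or more. Values below are given for the WT library first and the library labelled NOD.Cxcl16-/- second, and a log2 difference with its standard error is members over the other population.

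Conventional DC genes were high in the members and low in the monocytes. Flt3 (chr5:147330741-147400489, minus strand) stood at 142 (123 to 163) and 134 CPM (119 to 151) in members, with 95% Poisson intervals in brackets, and at 0 and 29.9 CPM in the monocytes. Zbtb46 (chr2:181387762-181459426, minus strand) stood at 79 (65.1 to 95.1) and 83.5 CPM (71.6 to 96.7) in members and at 0 and 9.95 CPM in the monocytes. In both libraries members were above the monocytes for both genes. The monocyte sums held 3 UMIs of Flt3 and 1 of Zbtb46, so the folds are loose: 7.13-fold, with a 95% counting interval of 2.43 to 34.7 for Flt3, and 12.7-fold, with a 95% counting interval of 2.27 to 505 for Zbtb46. Their adjusted p by edgeR's quasi-likelihood test was 0.0141 and 0.0155. Dpp4, a surface peptidase of conventional DCs, was at 159 and 122 CPM against 0 and 39.8 CPM, and Kmo, a kynurenine-pathway enzyme, at 60.0 and 47.9 CPM against no UMI in the 13 monocytes, at least 2.74-fold higher when set against 3 UMIs over the group.

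Of the 14 genes of the conventional DC list, 9 rose in members against the monocytes and none fell, while 3.65% of all 7867 genes tested were called higher and 4.35% lower. The 9 were Nav1, Kmo, Batf3, Dpp4, Zbtb46, Flt3, Plbd1, Napsa and H2-DMb2. Napsa, an aspartic peptidase of antigen-presenting cells, was at 1552 and 1484 CPM against 72.2 and 259 CPM, a log2 difference of 3.11 ± 0.31 (adjusted p = 1.2e-06, edgeR's quasi-likelihood test). The median log2 difference of the list was 2.31, or 2.0 with Kmo at its bound, beside 0.24 over all genes. Napsa also stood at 616 and 611 CPM in B cells of these libraries, so it is shared with other antigen-presenting cells.

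The genes of monocytes moved the other way. Of 10 classical monocyte genes tested, 9 fell in members against the Ly6c2 monocytes and none rose, with a list median of -4.30. The monocytes were chosen for Ly6c2 and Lyz2, and members had at most 1 Ly6c2 UMI. Low values of genes that go with Ly6c2 and Lyz2 may therefore follow in part from the gates, here and below. Ccr2, the receptor by which monocytes leave the marrow, was at 29.6 and 25.6 CPM against 379 and 418 CPM, a log2 difference of -3.80 ± 0.33. Cd14 was at 57.9 and 46 CPM against 614 and 677 CPM (-3.56 ± 0.25), with adjusted p of 1.9e-07 and 9.3e-09 by edgeR's quasi-likelihood test. Hp, the haptoglobin gene, was at 2.12 and 0.948 CPM against 1535 and 179 CPM, with 68% of the monocyte UMIs in 1 cell. F13a1 rests on the library labelled NOD.Cxcl16-/-, since the WT monocytes had none and the log2 ratio in that library alone was 1.27. Vcan and Thbs1 had no UMI in members of either library, which allows up to 2.12 and 1.42 CPM at 3 UMIs.

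The receptor and transcription factor genes that monocytes and macrophages share also fell: 6 of 8, with a list median of -3.20. Csf1r was at 38.8 and 43.2 CPM in members against 343 and 219 CPM in the monocytes (-2.60 ± 0.38, adjusted p = 1.2e-04, edgeR's quasi-likelihood test). Cebpb was at 184 and 146 CPM against 2528 and 1712 CPM (-3.55 ± 0.19), and Fcgr1 at 50.1 and 12.3 against 559.8 and 289 CPM. Csf1r and Cebpb were lower in the members than in the monocytes but well above the 3-UMI floor. Flt3 in the same members stood at 142 and 134 CPM, not above Cebpb. Of 10 non-classical monocyte genes, 4 fell (Itgal, Cx3cr1, Treml4, Adgre4) and 1 rose: Pglyrp1, a peptidoglycan-binding protein, at 485 and 483 CPM against 0 and 99.5 CPM (3.07 ± 0.46). Treml4, a defining gene of non-classical monocytes, was at 2.12 and 0.948 CPM in members.

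Functional genes also differed between members and monocytes. Of 12 chemokine genes 10 fell in members and none rose, and of 14 interferon-stimulated genes 9 fell. Ccl2, which attracts monocytes, is one of the 10, but the 6 WT monocytes had no UMI of it and the log2 ratio in the WT library alone was 3.53. Il1rn was at 19.8 and 22.8 CPM in members against 632 and 697 CPM in the monocytes (-4.86 ± 0.30), and the cytokine genes Il1a and Il18 fell with it. The decoy receptor Il1r2 rose, from 36.1 and 49.8 CPM in the monocytes to 576 and 952 CPM in members (4.22 ± 0.35, adjusted p = 9.2e-08, edgeR's quasi-likelihood test). Of 13 costimulation and cytokine genes tested, 2 rose (Cd86 and Cd80) and 3 fell (Il10, Il12b and Tnf), with a list median of -0.84. Cd86 was at 660.4 and 701 CPM in members against 307 and 229 CPM. Of 8 MHC class II genes 2 rose, H2-Oa and H2-Ob, and none fell. H2-Oa, a subunit that tunes MHC class II loading, was at 506 and 430.1 against 0 and 69.7 CPM. Among 20 transcription factors tested, Batf3, Zbtb46, Runx3 and Irf4 rose, and those that fell included Zeb2, Cebpb, Cebpa and Irf8. Irf8, needed by monocytes and type 1 DCs, was at 76.2 and 63.1 against 199 and 179 CPM (-1.35 ± 0.31).

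The genes farthest above the monocytes had no UMI in them. Ffar2, a receptor for short-chain fatty acids, was at 246 and 203 CPM in members and at least 11.5-fold higher. Spint2, a protease inhibitor gene, was at least 9.24-fold higher, and Btla, an inhibitory receptor gene, at least 5.14-fold higher. In the other direction Tlr7, an endosomal receptor for single-stranded RNA, was lower in members, 102-fold, with a 95% counting interval of 21.1 to 968, and Slc7a2, a transporter of cationic amino acids, was at least 30.2-fold lower.

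**Figure D1:**
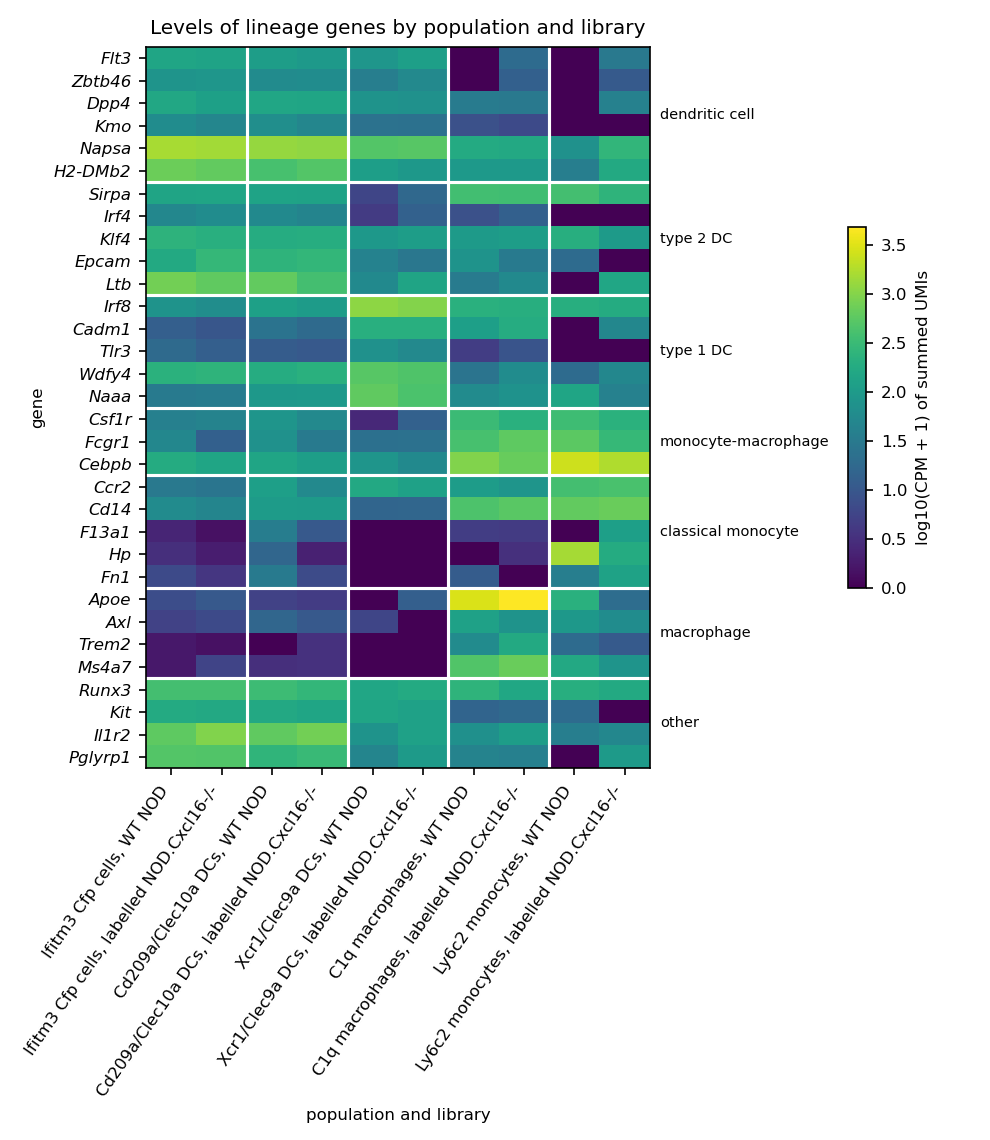
Heat map of levels, log10(CPM + 1), for genes of the DC, monocyte and macrophage lists (rows) in each population and library (columns). Flt3, Zbtb46 and Napsa are bright in members and Cd209a or Clec10a DCs. Csf1r, Fcgr1 and Cebpb are brighter in the monocytes and macrophages than in members, where Cebpb is also bright.

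Because the monocyte gate held only 13 cells and the WT macrophage gate 27, these 2 comparisons came from a fit over all 5 populations that was added after the cell numbers were seen. DESeq2 called 7 of the 14 conventional DC genes higher, and 10 of 10 classical monocyte genes lower, against the monocytes.

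The C1q macrophages gave the same directions for conventional DC genes and for genes shared by monocytes and macrophages. The monocyte lists were mixed. Of 10 classical monocyte genes 4 fell and 1, Plac8, rose. Of 10 non-classical monocyte genes 4 fell and 3 rose (Pglyrp1, Eno3, Nr4a1). Members had 8 of 14 conventional DC genes higher and none lower, where 7.86% of all genes were called higher and 11.9% lower. Flt3 differed by 3.16 ± 0.41 (log2, adjusted p = 6.1e-06) and Zbtb46 by 2.95 ± 0.42 (adjusted p = 2.1e-05) in edgeR's quasi-likelihood test. All 9 macrophage genes tested fell, with a median of -4.38, as did 7 of 8 genes shared by monocytes and macrophages. The macrophages had at least 10 C1q UMIs and members at most 2, so these falls may follow in part from the gates. Apoe, the lipid carrier, was at 6.35 and 9.48 CPM in members and 2898 and 4742 CPM in the macrophages. The complement and chemokine genes C3ar1, Ccl8 and Cxcl13 were also among the lowest, although 81% of the macrophages' Cxcl13 UMIs lay in 1 cell. Interferon genes were among them too: Ifnb1 had 1 UMI in the members and 210 in the macrophages.

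Beside these lower genes stand higher ones outside the conventional DC list. Klrd1, a subunit of natural killer cell lectin receptors, was at 165 and 177 CPM in members and 0 and 9.05 CPM in macrophages (4.44 ± 0.43, adjusted p = 1.5e-07, edgeR's quasi-likelihood test). Cd7, a T and NK cell surface gene also listed for type 2 DCs, was at 110.1 and 123 against 7.24 and 4.52 CPM. Tbx21, the transcription factor T-bet, was at 23.3 and 27.5 CPM against 1 UMI in the macrophages (29.95-fold, with a 95% counting interval of 5.24 to 1196), and was detected in 23 of 129 and 38 of 173 members. The 6 T-cell list genes summed to 16.2 and 17.5 CPM in the members and the 6 NK-cell list genes to 4.23 and 17.5 CPM, with 5 NK genes, Ncr1, Klrb1c, Gzma, Prf1 and Eomes, at 0 in the WT library. In the other library Prf1 was at 0, and all 25 Gzma UMIs lay in 1 cell. Abca13, a lipid transporter gene, had no UMI in macrophages and was at least 31.7-fold higher in members. The macrophage sums carried far more hormone RNA than the members: the endocrine list summed to 19973 and 11138 CPM there and to 222 and 1046 CPM in members, and the part of that RNA in the other differences was not tested.

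Against Xcr1 or Clec9a DCs, which the genes used for their gate define as type 1 conventional DCs, the members were higher in the type 2 list. Of 11 type 2 DC genes tested, 10 rose and none fell, with a median of 2.46, where 7.6% of all 7367 genes were called higher and 5.44% lower. Sirpa, an inhibitory receptor of type 2 DCs and monocytes, was at 140.4 and 144 CPM against 4.95 and 16.6 CPM (3.51 ± 0.30), and Irf4, a transcription factor of type 2 DCs, at 48.7 and 60.7 against 3.3 and 13 CPM (2.54 ± 0.38). Their adjusted p was 1.1e-06 and 2.3e-04 by edgeR's quasi-likelihood test. Of 9 type 1 DC genes, 7 fell with a median of -3.72. The other cells were chosen for Xcr1 or Clec9a and members had neither, so these falls may follow in part from the gates. Irf8, the factor that type 1 DCs need, was at 76.2 and 63.1 CPM in members against 1132 and 975 CPM (-4.01 ± 0.13), and the adhesion gene Cadm1 at 12 and 8.54 against 209.5 and 206 CPM. The type 2 list was split against the other lineages. Against the monocytes 3 of its 11 genes rose (Irf4, Ltb, Epcam) and 3 fell (Tmem176a, Tmem176b, Clec4a2). Against the macrophages 4 rose and 4 fell, Sirpa among those that fell. The list as a whole therefore did not set members apart from monocytes or macrophages.

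Fewer conventional DC genes were called against the Xcr1 or Clec9a DCs. Flt3 stood at 84.1 and 116 CPM in these cells, a log2 difference of 0.35 ± 0.19 that did not pass (adjusted p = 0.205, edgeR's quasi-likelihood test), and only Kmo, Napsa and H2-DMb2 of the 14 rose. Members were higher in 3 of 5 monocyte and macrophage lineage genes. Among them, Csf1r was at 1.65 and 13 CPM and Cebpb at 82.5 and 54.5 CPM in the Xcr1 or Clec9a DCs. The Ifitm copies that the rule did not use, Ifitm2 (1.06 ± 0.11) and Ifitm6 (1.74 ± 0.32), rose as well. Members were chosen for at least 3 Ifitm3 UMIs, and reads can be shared between copies. The rises of Ifitm2 and Ifitm6 may therefore follow in part from the rule. Chemokine receptor genes including Ccr1, Ccr6 and Ccr7 also rose, while Ccr2 and Cxcr3 fell. Ifi27, an interferon-induced gene, was at 92.4 and 110.5 CPM in members against 3.3 and 4.74 CPM (4.50 ± 0.42). Cd207, the langerin gene, had no UMI in the members and was at least 68.1-fold lower. DESeq2 called 7 of the 11 type 2 genes higher and 7 of the 9 type 1 genes lower.

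The nearest population was the Cd209a or Clec10a DCs. No gene of the 14-gene conventional DC list was called in either direction against them. Flt3 was at 142 and 134 CPM in members and 110.5 and 97.1 CPM in those DCs, a log2 difference of 0.34 ± 0.19, and Zbtb46 at 79 and 83.5 CPM and 58.5 and 60.4 CPM, a difference of 0.37 ± 0.21 (adjusted p = 0.487 and 0.51, edgeR's quasi-likelihood test). Over all 7367 genes tested, 0.475% were called higher in the members and 1.11% lower. At an unadjusted p under 0.05 edgeR's quasi-likelihood test had 3 list genes higher and 1 lower, and DESeq2 called none, with 1 higher at that level. The list median was 0.22. In simulated data with known changes the test recovered 94% of 4-fold and 30% of 2-fold changes in this comparison, so smaller differences may have been missed. The simulation changed only genes of higher level and gave all genes the same spread. A true 2-fold change was called only where its estimate also reached 2-fold. These shares therefore do not measure recovery for the 14 list genes.

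Antigen presentation genes gave a similar picture. H2-Aa, an MHC class II chain, was at 9274 and 9278 CPM in members and 9291 and 10903 CPM in the Cd209a or Clec10a DCs, and the invariant chain Cd74 at 19586 and 19107 CPM and 18621 and 20806 CPM. None of 8 MHC class II genes was called by edgeR's quasi-likelihood test or by DESeq2, with 2 higher and 5 lower at an unadjusted p under 0.05 in the first and 2 higher and 1 lower in the second. Of the 5 monocyte and macrophage lineage genes tested, none was called by edgeR's quasi-likelihood test or by DESeq2, with 3 lower at an unadjusted p under 0.05 in the first and none in the second. Csf1r was at 82.3 and 52.1 CPM in the Cd209a or Clec10a DCs. Of 11 type 2 DC genes only Clec4b1, a lectin receptor gene, fell and none rose, with a median of -0.24. Of 6 classical monocyte genes, Ccr2 (29.6 and 25.6 against 117 and 52.1 CPM) and Cd14 (57.9 and 46 against 104 and 101 CPM) fell in members, and DESeq2 kept the call of Ccr2. Kit and Il1r2, genes of a growth factor receptor and of an interleukin-1 decoy receptor, were high in both populations. Kit was at 179 and 163 CPM in members and 165 and 144 CPM in those DCs, and Il1r2 at 576 and 952 CPM and 599.9 and 780.0 CPM.

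What fell in members against the Cd209a or Clec10a DCs were chemokines, cytokines and interferon-stimulated genes. Members had no UMI of Cd209a, Clec10a or Mgl2, and those DCs had at least 2. Falls in this comparison, above and below, may therefore follow in part from the gates. Of 11 chemokine genes tested, 8 fell and none rose, with a median of -1.71. Ccl17, a ligand of Ccr4, was at 0.706 and 0.474 CPM (2 UMIs) in members against 204 and 90.0 CPM, 229-fold, with a 95% counting interval of 62.5 to 1909.5, with 35% of the other UMIs in 1 cell. Ccl4 was at 181 and 126 against 524 and 1062 CPM (-2.52 ± 0.34), and the T-cell attractant Cxcl9 at 700.0 and 924 against 1631 and 1828 CPM (-1.19 ± 0.09), with adjusted p of 6.2e-04 and 2.4e-06 by edgeR's quasi-likelihood test. The other 5 were Cxcl2, Ccl2, Ccl5, Ccl6 and Ccl9. Cxcl16, the chemokine gene of the second library's label, was at 243 and 240.4 against 370.3 and 373 CPM (-0.71 ± 0.13), short of the 2-fold limit. DESeq2 called 2 of the 11, Ccl17 and Cxcl9, and none was called when the rule was applied to cells thinned to 2000 UMIs each.

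Of 10 costimulation and cytokine genes, 3 fell. Il12b, the interleukin-12 subunit, was at 0 and 0.948 against 121 and 32 CPM (112-fold, with a 95% counting interval of 30.04 to 940.1), with 61% of the DC UMIs in 1 cell. Tnf was at 109 and 54.1 against 264 and 285 CPM (-1.93 ± 0.22, adjusted p = 1.6e-04, edgeR's quasi-likelihood test), and Tnfsf9 was the third. The costimulatory genes Cd86 (660.4 and 701 against 604 and 692 CPM) and Cd80 (121 and 164 against 117 and 186 CPM) were not called. Of 14 interferon-stimulated genes, Isg15, Cxcl9, Oasl1, Rsad2 and Ifit1 fell (Rsad2 -2.60 ± 0.27, Ifit1 -2.40 ± 0.34), with a list median of -0.87. DESeq2 called 4 of these 5. With the rule on thinned cells none of the 10 costimulation and cytokine genes and none of the 14 interferon-stimulated genes was called. Beyond the lists, Mmp12, an elastase, was the third lowest gene by the naming rule (0 and 1.42 against 108 and 53.3 CPM), and Il1rn, the interleukin-1 receptor antagonist, fell by 2.15 on the log2 scale. Il1b, which was among the markers of the members and is not tested, stood at 704 and 1029.9 CPM in them and at 2361 and 2102 CPM in the Cd209a or Clec10a DCs.

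The genes highest in members against the Cd209a or Clec10a DCs included cell division genes. Of 10 cell cycle genes, Tyms, which makes thymidylate, and Birc5, a mitotic survivin, rose, with a list median of 1.12 and 8 genes higher at an unadjusted p under 0.05. Birc5 was at 65.6 and 69.7 against 19.5 and 17.8 CPM (1.77 ± 0.40, adjusted p = 0.0292, edgeR's quasi-likelihood test), while Mki67 was at 49.4 and 71.6 against 56.3 and 59.2 CPM and was not called. DESeq2 called none of the 10, with 4 at an unadjusted p under 0.05, and none was called without the library term or against DCs that also met the Ifitm3 and Cfp limits. Other populations gave other directions. Against the Xcr1 or Clec9a DCs none of the 10 was above 0, and Cdk1 was called lower. The median there was -0.75, with -1.32 and 0.37 in the single libraries. Against the monocytes Mki67 and Ccnb2 fell and none rose, and against the macrophages 6 rose and none fell. At least 1 UMI of Mki67, Top2a or Birc5 was found in 40 of 129 and 68 of 173 members.

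The other genes that rose were of mixed function. Ryr3, a calcium release channel, was at 84 and 47.9 against 2.17 and 2.37 CPM (3 UMIs there, 27.2-fold, with a 95% counting interval of 9.18 to 133), and Abca13 at 100.2 and 69.7 against 4.33 and 7.1 CPM (3.67 ± 0.55, adjusted p = 0.00166, edgeR's quasi-likelihood test). Dapk2, a death-associated kinase, differed by 2.39 ± 0.33 and Icos, a T-cell costimulatory receptor, by 2.15 ± 0.43. Bmp2, Dpp10, Tln2, L3mbtl4, Cenpf, Ube2c and Hist1h1b completed the 12 highest together with Tyms.

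**Figure D2:**
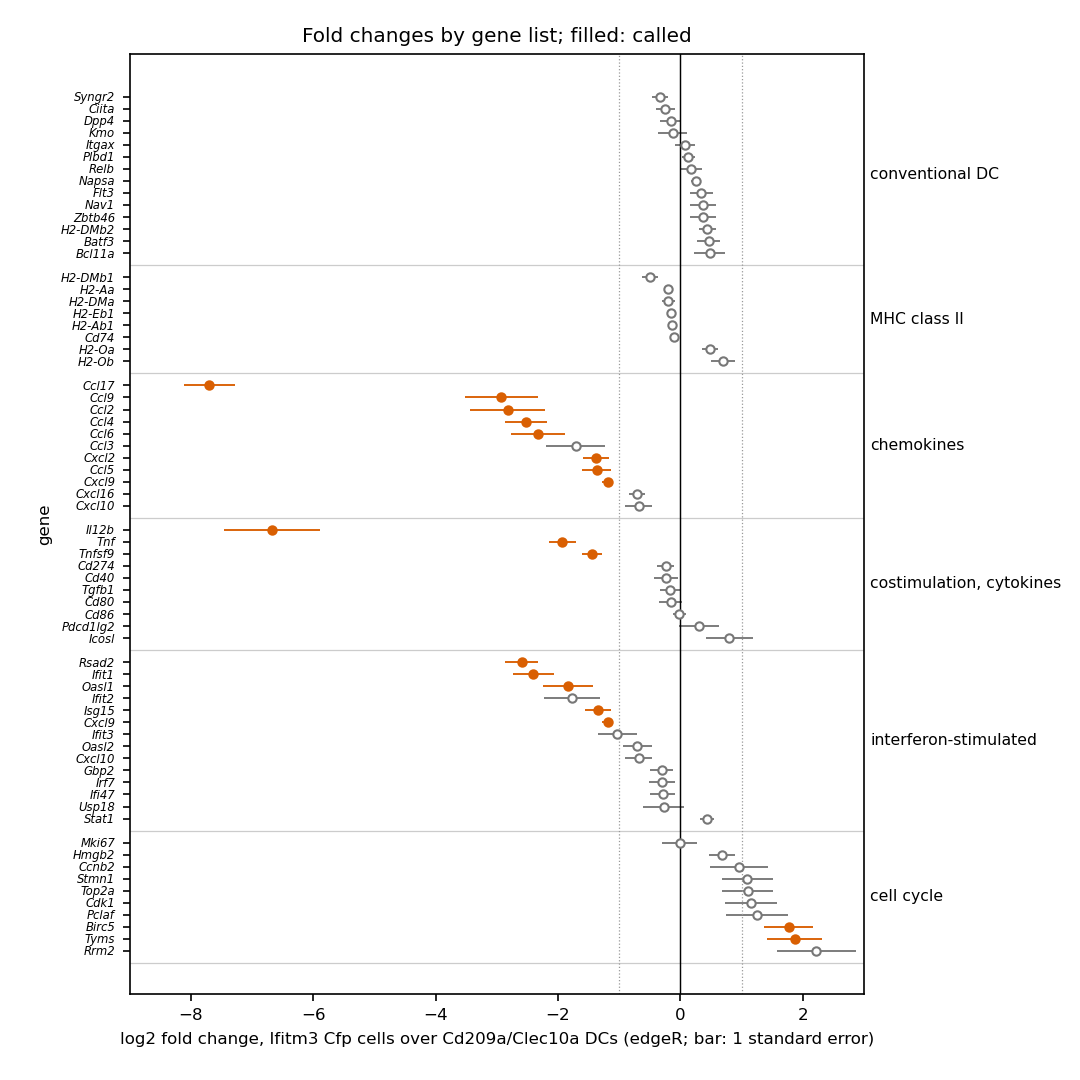
Log2 difference of members over Cd209a or Clec10a DCs with its standard error for genes of 6 lists, with filled symbols where the gene was called. Conventional DC genes lie around 0 and none is filled, while 8 chemokine genes are filled and lie below 0.

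Whole profiles gave the same order in both libraries. Over 9649 and 8784 genes, with the genes that chose cells left out, the Spearman correlation of members with Cd209a or Clec10a DCs was 0.915 and 0.940, with Xcr1 or Clec9a DCs 0.861 and 0.877, with C1q macrophages 0.728 and 0.778, and with Ly6c2 monocytes 0.628 and 0.705. These are correlations across genes, which are not replicates, and sums of 6 or 7 cells are noisier than sums of more. Over the 2000 genes most variable between populations the values for the monocytes were -0.380 and -0.211, against 0.786 and 0.765 for the Cd209a or Clec10a DCs. Those 2000 genes were picked by their variance over the same sums, the monocyte sums included. The low values for the monocytes may follow in part from that choice.

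For a comparison cell by cell, 2000 UMIs were drawn at random from each cell, and 6 and 2 shallower members dropped out. UMIs of the 14 conventional DC genes outnumbered those of the 3 monocyte lists (classical, non-classical, and shared with macrophages) in 90 of 123 WT members (73.2%, exact interval 64.4 to 80.8) and in 146 of 171 members of the other library (85.4%, 79.2 to 90.3). The medians were 8 against 5 UMIs and 9 against 4. Among Cd209a or Clec10a DCs this held for 27 of 37 and 53 of 66 cells, among macrophages for 4 of 24 and 5 of 77, and among the monocytes for none of 6 and none of 7. The order reversed in 19 and 17 members, whose monocyte-list UMIs were the greater.

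**Figure D3:**
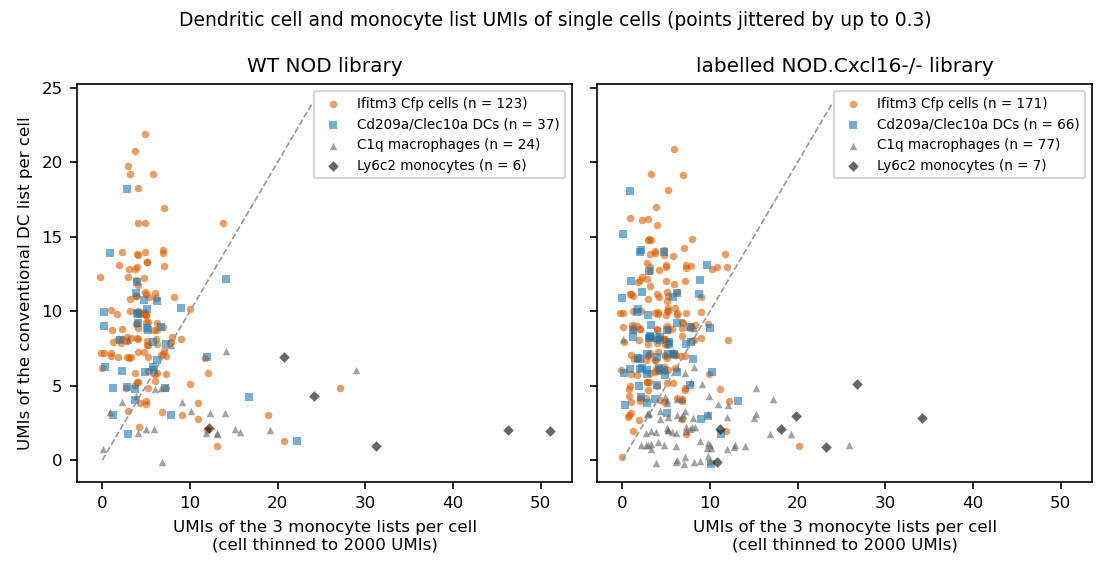
UMIs of the conventional DC list (y axis) against UMIs of the 3 monocyte lists (x axis) per cell after thinning to 2000 UMIs, 1 point per cell, 1 panel per library. Most members lie with the Cd209a or Clec10a DCs above the diagonal, and the monocytes lie below it.

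The share of members with a UMI of a defining gene was set beside that in B cells. The WT C1q macrophages had no UMI of Flt3 or Zbtb46. Whether the B-cell UMIs came from free RNA was not tested. Flt3 had a UMI in 68.2% and 70.5% of members and in 14% and 16.2% of B cells, at median depths of 11208 and 11766 UMIs against 4648 and 4764. After thinning to 2000 UMIs these shares were 23.6% and 17% against 5.52% and 5.86%. Zbtb46 had shares of 45.7% and 59% against 2.92% and 4.55%, and 15.4% and 15.2% against 0.788% and 1.08% after thinning. Csf1r was also above its B-cell share, with 27.1% and 31.2% of members against 1.18% and 2.32% of B cells, and 8.94% and 8.77% against 0.328% and 0.463% after thinning. Flt3 or Zbtb46 occurred in 102 of 129 and 150 of 173 members.

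Monocyte genes were unevenly spread over the members. Lyz2 was at 0 UMIs in 106 WT members and 142 of the other library, at 1 to 9 in 11 and 17, and at 10 or more in 12 and 14. Flt3 stood at 31.8 and 68.6 CPM in the cells with 10 or more and at 152 and 136 CPM in those with none. Zbtb46 did not follow this order as clearly, with 71.7 and 31.7 CPM at 10 or more, 33.5 and 77.7 CPM at 1 to 9 and 84.5 and 90.0 CPM at none, the 1 to 9 class being the lowest in the WT library. Napsa showed 565 and 665 against 1642 and 1591 CPM. For monocyte genes the classes stood the other way. Csf1r was at 183 and 132 CPM with 10 or more Lyz2 UMIs and at 24.7 and 34.7 CPM with none, Cd14 at 478 and 264 against 10.2 and 27 CPM, and Ccr2 at 263 and 195 against 2.56 and 7.06 CPM. Il1b was at 1728 and 3277 against 582 and 769 CPM. Median depths of these classes were 11447 and 12804 UMIs against 11281 and 11620, and the part of depth was not tested. The classes were set after the data were seen and carry no test. Without the cells of 10 or more Lyz2 UMIs, 9 of 14 conventional DC genes were again higher against the monocytes and 0 of 14 were called against the Cd209a or Clec10a DCs, where the genes lower in members went from 82 to 126.

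**Figure D4:**
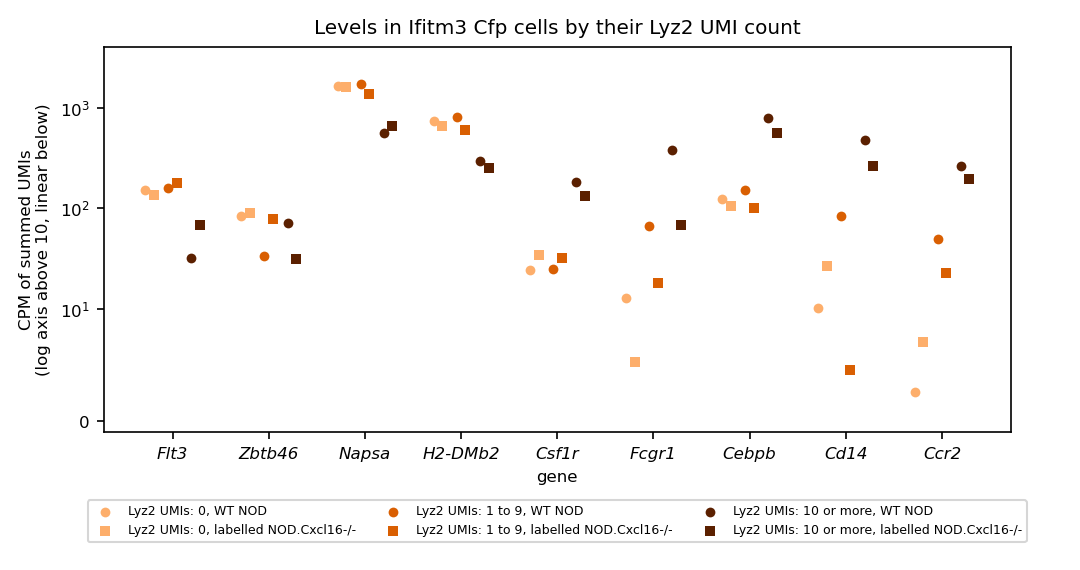
CPM of 9 DC and monocyte genes (symmetric log axis, linear below 10 CPM) in members with 0, 1 to 9 and 10 or more Lyz2 UMIs, with WT members as circles and members of the library labelled NOD.Cxcl16-/- as squares. Csf1r, Cd14 and Ccr2 stand higher, and Napsa lower, in the class of 10 or more than in the class of 0 in both libraries.

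Markers of other cells differed by cell type in the members. The endocrine list summed to 222 and 1046 CPM, with a UMI in 34.1% and 69.9% of members. The rule itself removed cells with Cd3 UMIs or more than 1 Cd79a UMI, and the step on Cd3 took out 53.8% and 35.5% of the cells that reached it, so low values of T-cell and B-cell genes follow in part from the rule. The B-cell list summed to 13.4 and 8.06 CPM and the plasma-cell list to 16.9 and 17.5 CPM. Of 15 neutrophil genes 9 had no UMI in each library, among them S100a8, S100a9 and Ly6g, yet the list summed to 727 and 1139 CPM, most of it Il1r2, with Mxd1 at 122 and 147 CPM and Trem1 at 24 and 34.1 CPM. Il1r2 and Trem1 rose in members against the macrophages and against the Xcr1 or Clec9a DCs. Of 5 neutrophil genes tested against the macrophages, the 2 others called, Csf3r and Clec4d, fell. Against the monocytes Il1r2 rose, and Csf3r and Clec4d fell. Of 11 basophil and mast cell genes 9 had no UMI, including Cpa3, Mcpt8 and Fcer1a, while Kit was present as given above. Immunoglobulin genes held 0.0251% and 0.0345% of the members' UMIs, and T-cell receptor genes 0.00409% and 0.00365%. Scores against simulated doublets, cut at 0.8% for each 1000 barcodes, removed 1201 and 835 barcodes, of which none was a member.

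The 2 libraries' members were set side by side by list. The median log2 ratio, library labelled NOD.Cxcl16-/- over WT with 1 CPM added, was -0.03 for the 14 conventional DC genes and 0.00 for the 8 MHC class II genes, beside 0.02 over all 7479 genes measured. Of these genes 1.54% were 2-fold or more higher and 1.68% lower, and none of the 14 conventional DC genes and none of 11 type 2 DC genes measured was among them, while 1 of 9 type 1 DC genes was lower. Of 5 monocyte and macrophage lineage genes 1 was 2-fold higher and 1 lower, and of 5 classical monocyte genes 1 was lower, with list medians of 0.15 and -0.32. Flt3 was at 142 and 134 CPM and H2-Aa at 9274 and 9278 CPM. All 11 dissociation stress genes were below 0, with a median of -0.45. With 1 library each, none of this can be told from differences between libraries.

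The genes with the largest ratios included hormone genes and genes carried by single cells. Ins2, an insulin gene, was at 88.9 and 610.3 CPM, in 33 and 94 members, but 806 of the 1287 UMIs in the library labelled NOD.Cxcl16-/- lay in 1 cell. Ins1 was at 64.9 and 370.3 CPM, with 512 of 781 UMIs in 1 cell. Gcg, the glucagon gene, went from 1 UMI to 35 in 15 cells. All 64 WT UMIs of the pancreatic polypeptide gene Ppy lay in 1 cell. Fcgr1 was at 50.1 and 12.3 CPM with UMIs in 19 and 13 cells and 20 of the 71 WT UMIs in 1 of them. Gpr82, an orphan receptor gene, was spread more evenly, at 23.3 and 5.22 CPM in 28 and 10 cells with at most 2 UMIs in any cell. Cxcr6, the receptor for Cxcl16, had 1 UMI in WT members and none in the others.

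**Figure D5:**
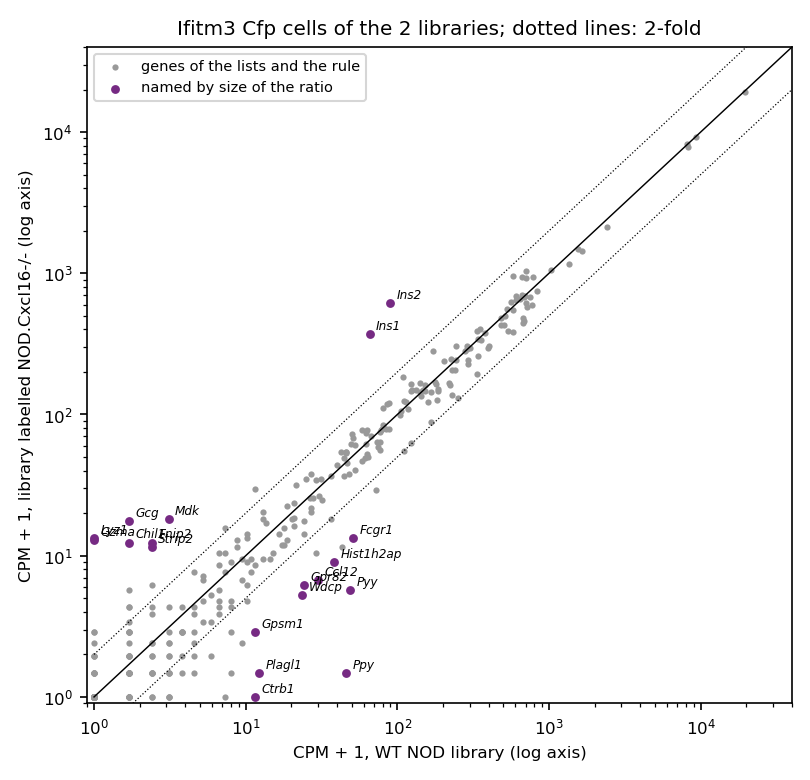
Level in members of the library labelled NOD.Cxcl16-/- (y axis) against the WT library (x axis), CPM + 1 on log axes, dotted lines at 2-fold. Each point is a gene of the rule or the lists (grey) or a gene with one of the largest ratios (purple, labelled), and Ins2 and Gcg lie above the upper dotted line.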

How the data were processed

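Single-cell RNA of sorted islet leukocytes was sequenced in 2 libraries, 1 per genotype label. The deposited matrices hold raw UMI counts, made by the authors with Cell Ranger 7.0.1 on mm10 per the submitters' processing notes. Members were found on these counts. UMIs were summed per library and population and tested with edgeR 4.0.16 (R 4.3.3) in a quasi-likelihood fit with library and population as terms, TMM scaling and filterByExpr, over 3 populations, or over 5 for monocytes and macrophages. DESeq2 1.42.0 was the alternative. The 2 libraries stood in as replicates although their genotype labels differ. The library term takes up an overall difference between them. The p-values therefore rest on how far the differences between populations varied from 1 library to the other. Genotypes were not tested: CPM carried exact Poisson intervals, and ratios had 1 CPM added. The members and the gene lists were chosen with earlier results of these data known. Besides list genes, the text names genes from the 12 largest called changes per direction of at least 20 CPM, and from the 10 largest ratios between libraries. A few genes that met these rules are not reported here. The fit was tested on simulated data. Coordinates come from GENCODE M21 (GRCm38).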

Additional observations from a re-analysis of the deposited data

Results flagged for a closer look

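For 4 genes the difference between members and a comparison population had opposite signs in the 2 libraries, with counting intervals that left out a ratio of 1 in both. The difference between libraries was not tested. For Gzma, a granzyme gene, the log2 ratio of members over Xcr1 or Clec9a DCs was -5.96 for WT and 1.5 for the library labelled NOD.Cxcl16-/-, where all 25 member UMIs lay in 1 cell. Against the Ly6c2 monocytes, of which there were only 6 and 7, the ratio of the immediate early gene Egr1 was 1.59 and -1.11. The insulin genes gave -2.78 and 2.61 for Ins1 and -2.97 and 2.60 for Ins2 in that comparison.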

How the results depend on the processing

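No paired analysis was possible because each group has 1 library and replicate numbers only follow accession order. Against the Cd209a or Clec10a DCs, the 35 genes higher and 82 lower became 5 and 39 with DESeq2, 91 and 136 without a filter, 16 and 54 without the library term, 15 and 39 with upper limits of 0, and 16 and 16 with the rule on thinned cells. Leaving out members of 10 or more Lyz2 UMIs gave 126 lower. DESeq2 shared 44 of the 117 calls and the thinned rule 12. Against the Xcr1 or Clec9a DCs, 560 higher and 401 lower became 289 and 199 with DESeq2, 344 and 242 with upper limits of 0, and 306 and 212 with the thinned rule. Against the monocytes, 287 higher became 153 with DESeq2 and 482 without a filter. Between libraries, 115 genes higher and 126 lower became 37 and 43 with 5 CPM added and 4 and 5 above 50 CPM, and 254 were lower with upper limits of 0. The share of members was 1.29% in the WT library at 1000 genes and 1.33% there with the thinned rule. In both libraries it was 0.873% and 1.45% with Cfp of 2 or more, 0.80% and 1.06% with upper limits of 0, and 1.32% and 1.97% with up to 2 Cd3 UMIs. Over the 2000 most variable genes, the correlation was 0.786 and 0.765 with Cd209a or Clec10a DCs, 0.648 and 0.545 with Xcr1 or Clec9a DCs, 0.246 and 0.172 with macrophages, and reversed to -0.380 and -0.211 with monocytes. The causes were not tested.

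Signs reversed for single genes: Jchain against Xcr1 or Clec9a DCs with the thinned rule (3.16), and, against monocytes without the library labelled NOD.Cxcl16-/-, Ccl2 (3.53), Ccnb2 (4.33), F13a1 (1.27) and Nkg7 (2.39), which gave -5.08, -3.32, -6.35 and -4.77 without the WT library. Between libraries Ppy and Pyy turned to 0.61 and 0.61 with Ifitm3 of 5 or more, Ccl12 to 1.32 with Cfp of 2 or more, and Ppy to 0.83 with upper limits of 0. With the thinned rule Ins2 turned to -0.13, Mdk to -0.80 and Wdcp to 0.78, and Chil1 turned to -0.83 without members of 10 or more Lyz2 UMIs. The conventional DC list had no call against Cd209a or Clec10a DCs in any setting run, and 7 to 9 genes higher against monocytes. Monocytes with Ly6c2 and Lyz2 of 6 or more were too few, 2 and 1 cells, and were not run, nor were monocytes with upper limits of 0 or the thinned rule. Leaving out either library gave values with no test. Depth limits low genes: 3 UMIs equal 2.12 and 1.42 CPM in members.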
